A study of Mus musculus with 4 samples.

Results

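Glycolysis in tumour endothelial cells was described through 33 genes for glucose and lactate transporters, glycolytic enzymes, and the proteins that regulate the pathway or decide what becomes of its pyruvate. The members were chosen by gene symbol from what the genes encode, with earlier results of these data known. All 33 were found among the 55367 gene names of the deposited count table. All 33 were also among the 16945 genes with enough reads to be tested. The tested libraries came from CD31+CD45- cells sorted from palpable subcutaneous KPC tumours of C57BL/6 mice that had received an anti-CD93 antibody by intraperitoneal injection 48 hours before the cells were taken (2 libraries). They were set against 2 libraries of the same kind from mice given a control rat IgG. KPC denotes a mouse line of pancreatic carcinoma, CD31 is an endothelial surface protein, CD45 is a leukocyte protein, and CD93 is a transmembrane receptor of endothelial cells. Separate mice for the 2 libraries of a group are not stated in the labels. The p-values therefore cover no more than library-to-library spread, which may be technical.

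Cells take up glucose through facilitative transporters, trap it with hexokinase, and split it in the cytosol to pyruvate with a net gain of ATP. Pyruvate is then either reduced to lactate and exported, or carried into mitochondria and oxidised by the pyruvate dehydrogenase complex. Endothelial cells are known to draw much of their ATP from glycolysis even when oxygen is present, and the PFKFB3 enzyme is known as a driver of vessel sprouting. Hypoxia-inducible factors, which bind DNA at a core of the letters ACGTG, are known to switch on many genes of the pathway.

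The sequence upstream of 4 members is shown. They were picked from the 12 whose levels differed without overlap between the groups (values below), as examples with and without the ACGTG core. The windows are the 250 bases before the RefSeq transcription start in GRCm38.p6, written 5′ to 3′ on the gene's strand. Capitals mark ACGTG or its reverse complement CACGT. The windows lie at chr6:82774455-82774704 on the minus strand for Hk2, chrX:106186850-106187099 on the plus strand for Pgk1, chr4:119108495-119108744 on the plus strand for Slc2a1 and chr6:5496279-5496528 on the minus strand for Pdk4.
Hk2: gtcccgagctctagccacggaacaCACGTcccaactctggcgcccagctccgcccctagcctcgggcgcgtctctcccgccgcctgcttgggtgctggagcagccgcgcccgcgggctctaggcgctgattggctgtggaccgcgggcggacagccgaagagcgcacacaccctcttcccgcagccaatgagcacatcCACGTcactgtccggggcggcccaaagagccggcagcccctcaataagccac
Pgk1: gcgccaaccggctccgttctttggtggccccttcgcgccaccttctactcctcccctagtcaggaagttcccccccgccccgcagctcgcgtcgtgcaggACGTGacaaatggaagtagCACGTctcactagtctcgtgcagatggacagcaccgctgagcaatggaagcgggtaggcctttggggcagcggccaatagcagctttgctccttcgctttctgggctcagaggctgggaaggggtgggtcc
Slc2a1: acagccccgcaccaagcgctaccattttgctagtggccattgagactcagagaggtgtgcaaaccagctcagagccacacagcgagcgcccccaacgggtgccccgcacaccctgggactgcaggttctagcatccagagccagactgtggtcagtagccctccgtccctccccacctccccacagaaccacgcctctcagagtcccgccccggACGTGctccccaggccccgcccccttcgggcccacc
Pdk4: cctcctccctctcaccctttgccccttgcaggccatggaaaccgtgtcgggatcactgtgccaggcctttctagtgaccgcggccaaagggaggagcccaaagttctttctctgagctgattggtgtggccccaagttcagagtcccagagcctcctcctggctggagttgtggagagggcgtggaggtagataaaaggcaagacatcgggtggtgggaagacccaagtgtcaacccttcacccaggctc

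The Hk2 window held the core 2 times, with its first base 226 and 52 bases before the start. The Pgk1 window also held it 2 times, 150 and 131 bases before the start, the Slc2a1 window held it 1 time, 36 bases before the start, and the Pdk4 window did not hold these letters. RefSeq windows were available for 32 of the 33 members, and 15 of them, or 46.9%, held ACGTG on either strand in at least 1 window. The same was true of 20% of 17492 protein-coding genes and of 18.5% of all 27025 genes with a window. A gene with more windows has more chances to hold it. Counted by window, 36.5% of the 52 member windows held it, beside 16.6% of all 32851 windows. A palindromic CACGTG contains the core on both strands and was counted on each; it stood in 6 of the 52 member windows and in 6.02% of all windows. Member windows had a mean GC content of 59.3%, against 55.5% for windows of protein-coding genes. Among the members whose levels were higher with anti-CD93 without overlap, 5 of the 8 with a window held the core, against 10 of the other 24. Windows of Pdk1, Pdha1, Eno2, Mpc1 and Mpc2, which also differed without overlap, did not hold it. The highest count in a window, 5, was that of Ldha, which overlapped between the groups. These matches are letters in a window and were not measured as binding sites.

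Levels are given as CPM, the reads of a gene per 1e6 reads of all tested genes, scaled by TMM, which assumes that most genes are alike between libraries. Log2 fold changes are anti-CD93 over control IgG from 1 edgeR quasi-likelihood fit of all 16945 genes, with their standard errors (SE) and with p-values adjusted over all genes tested by the Benjamini-Hochberg method. Reads assigned to genes numbered 17813993 and 13808077 in anti-CD93 replicates 1 and 2, and 12264231 and 9364294 in control IgG replicates 1 and 2. Control IgG replicate 2, the library with the fewest reads, detected 27718 genes, against 23796 to 25430 in the other 3. Of the 33 members, 15 had their highest and 10 their lowest level in that library, and the control libraries lay further apart than the anti-CD93 libraries for 25 of them. The shares over all genes are not given, so these counts do not set the members apart from other genes. The plot of fold changes shows each member with and without each control library, and list medians are given with and without control IgG replicate 2.

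The sorted cells were checked against marker lists. All 10 endothelial markers were read at 82.9 CPM or more in every library, with a summed level of 8553 and 8776 CPM in the anti-CD93 libraries and 8696 and 10647 CPM in the control IgG libraries. Of these 10, 9 lay below 0 on the log2 scale and 6 were lower with anti-CD93 without overlap, where 19.7% of all genes were, with a median of -0.18, and -0.048 without control IgG replicate 2. RNA of pancreatic carcinoma epithelium was also present, with none of its 8 markers at 0 and a summed level of 2458 and 2064 CPM with anti-CD93 against 1738 and 2515 CPM with control IgG. The median log2 fold change of the 8 was 0.12 with 6 above 0, and 0.39 with 7 above 0 without control IgG replicate 2. Among these, Epcam was at 34.1 and 41.1 CPM with anti-CD93 against 21.7 and 23.4 CPM with control IgG, Cdh1 at 351 and 290.0 against 216 and 210.4 CPM, and Muc1 at 78.5 and 72 against 35.2 and 48.1 CPM. These 3 did not overlap between the groups, where 20.1% of all genes were higher without overlap. Their log2 fold changes were 0.74, 0.59 and 0.86. The other 5 overlapped, with 0.18 for Krt7, 0.013 for Krt8, -0.12 for Krt18, -0.031 for Krt19 and 0.054 for Msln. Carcinoma cells also express glycolytic genes. The part of these cells in the member differences was not tested, and in such bulk samples fewer cells of a type and less RNA per cell cannot be told apart. Leukocyte markers summed to 26.4 to 32.1 CPM with anti-CD93 and 18.7 to 33 CPM with control IgG, with a median of 0.044 over the 6 tested, and 0.76 without control IgG replicate 2. Skeletal muscle markers summed to 14.8 to 16.9 CPM with anti-CD93 and 15.7 to 36.4 CPM with control IgG, with a median of 0.24 over 3, and 0.30 without that library. Those of fibroblasts and pericytes summed to 1640 to 1860 CPM with anti-CD93 and 1779 to 2220 CPM with control IgG, with a median of -0.13 over 9, and 0.064 without that library. Erythroid markers summed to 18.8 to 28.4 CPM with anti-CD93 and 9.22 to 19.9 CPM with control IgG, with a median of 0.48 over 5, and 1.63 without that library. Among them the globin genes Hbb-bt, with 52 and 29 reads with anti-CD93 against 1 and 1 with control IgG, and Hba-a2, with 135 and 53 against 25 and 18, stood apart between the groups, while Hba-a1, Hbb-bs and Alas2 overlapped. Beside these 2 of the 5 tested, 20.1% of all genes were higher without overlap. Globin genes have near-identical copies, so the split of reads among them is uncertain, and the part of red cell RNA in the member differences was not tested.

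The comparison asked whether anti-CD93 treatment changed the RNA of the pathway. With anti-CD93 the hexokinase gene Hk2 averaged 1.51 times and the pyruvate dehydrogenase kinase gene Pdk4 1.83 times its control level. In the other direction Ldhb averaged 0.50 times and Eno2 0.56 times its control level, both from few reads. The enzyme genes Pkm, Aldoa, Ldha, Eno1 and Gpi1 lay within 0.12 of 0 on the log2 scale. No member passed the test. By edgeR 0 of the 33 members had an adjusted p under 0.05 (background 0% of 16945 genes), and the smallest member value was an adjusted p of 0.812. At an unadjusted p under 0.05 there were 2, Hk2 and Pdk4, which is 6.06% of the members beside 4.49% of all genes tested. DESeq2 and limma-voom also called 0 members, with backgrounds of 0.015% and 0%, and so did edgeR with the replicate number as a block, with a background of 0.0826%. The members split into 18 above and 15 below a log2 fold change of 0, or 54.5% above, beside 49.1% of all genes. Their median was 0.052, beside -0.0092 for all genes tested. With trends of gene length and GC content removed, 26 members, or 78.8%, lay above 0, beside 46.3% of all genes, and the median was 0.17. Summed over the members, the level was 4654 and 4841 CPM with anti-CD93 and 4431 and 4767 CPM with control IgG, ranges that overlap. Without Pkm, the gene with the most reads, the sum was 3486 and 3587 CPM with anti-CD93 and 3192 and 3391 CPM with control IgG, which do not overlap, so the overlap of the full sum rests on that gene.

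**Figure D1:**
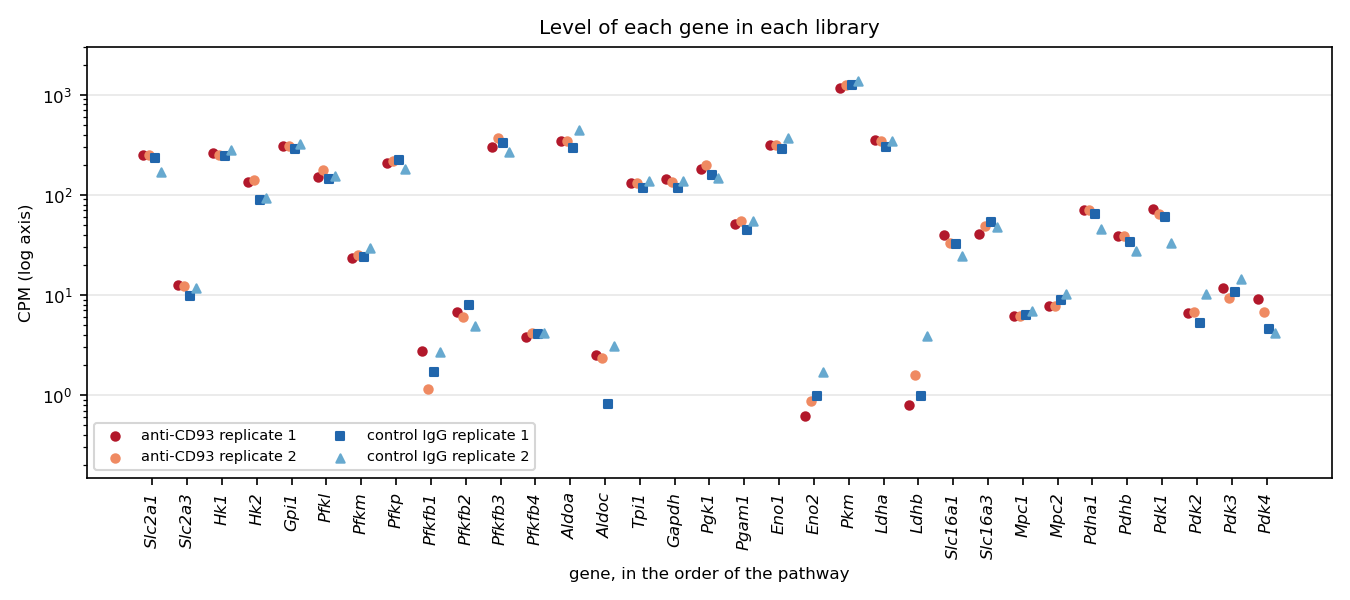
Level of each of the 33 genes in each library, in CPM on a log axis, with genes in the order of the pathway. Circles are the 2 anti-CD93 libraries, and the square and the triangle are control IgG replicates 1 and 2. Both circles lie above both control symbols for Hk2 and Pdk4, while Pkm lies near or above 1000 CPM in every library.

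Without overlap between the groups, 9 members (27.3%) were higher with anti-CD93, beside 20.1% of all genes, and 3 members (9.09%) were lower, beside 19.7% of all genes. The 9 were Slc2a1, Slc2a3, Hk2, Pgk1, Slc16a1, Pdk1, Pdk4, Pdha1 and Pdhb, and the 3 were Eno2, Mpc1 and Mpc2. Together these 12 were 36.4% of the members, close to the 39.8% of all genes.

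Glucose transport was represented by 2 genes. Slc2a1 (chromosome 4, 119108711 to 119137983, GRCm38), which encodes GLUT1, the main glucose carrier of many endothelia, was at 250.2 and 248 CPM in the anti-CD93 libraries and at 232 and 170.4 CPM in the control IgG libraries. The groups did not overlap, and the gap was set mainly by control IgG replicate 2. Its log2 fold change was 0.31 (SE 0.20, adjusted p = 0.812 by edgeR), and it was 0.10 without control IgG replicate 2 and 0.55 without control IgG replicate 1. Slc2a3 (chromosome 6, 122727809 to 122801640), which encodes the high-affinity carrier GLUT3, was at 12.7 and 12.4 CPM with anti-CD93 against 9.71 and 11.8 CPM with control IgG. Per length of merged exons, Slc2a1 made up 97.6% of the summed level of the pair in each anti-CD93 library, against 98% and 96.8% in the control libraries.

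Hexokinases carry out the first step, the phosphorylation of glucose. Hk2 (chromosome 6, 82725025 to 82774454), the inducible isozyme that binds mitochondria and whose upstream window with 2 cores is printed above, was at 135 and 141 CPM with anti-CD93 against 89.2 and 93.4 CPM with control IgG. The groups did not overlap, and the libraries of each group lay close together. Its mean was 138 ± 4.38 CPM with anti-CD93 and 91.3 ± 2.91 CPM with control IgG (SD, n = 2 each), a log2 fold change of 0.60 (SE 0.17, unadjusted p = 0.0075 and adjusted p = 0.812 by edgeR). The value ran from 0.57 to 0.64 when each library was left out in turn. Without control IgG replicate 2 the adjusted p by edgeR was 0.0716. Without control IgG replicate 1 it was 0.00334 by edgeR, in a setting that called 26.8% of all genes. Hk2 thus held its size with any 1 library removed but did not pass with all 4. Of the 8 carcinoma markers, Epcam, Cdh1 and Muc1 were also higher without overlap, as were 20.1% of all genes, while the other 5 overlapped. The part of carcinoma RNA in the Hk2 value was not tested. Hk1 (chromosome 10, 62268855 to 62379908), the constitutive isozyme, was at 259 and 252 CPM with anti-CD93 and 243 and 280.4 CPM with control IgG, and the groups overlapped. Per length, Hk2 made up 42.8% and 44.5% of the summed hexokinase pair with anti-CD93 and 34.4% and 32.2% with control IgG. The log2 ratio of Hk2 to Hk1, which does not depend on library scaling, was -0.37 ± 0.071 with anti-CD93 and -1.00 ± 0.10 with control IgG (SD, n = 2 each), a difference of 0.63. By an exact two-sided permutation test its p was 0.333, the smallest that 2 against 2 libraries allow, and its adjusted p over the 7 isozyme pairs compared was 0.933.

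**Figure D2:**
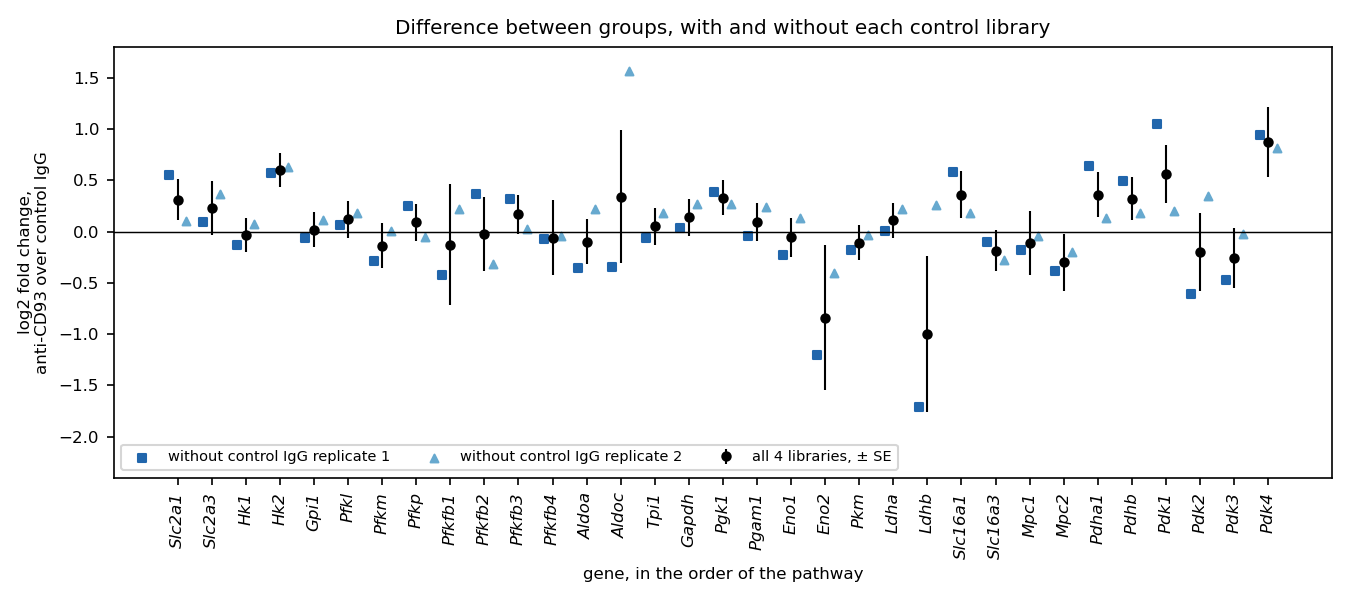
Log2 fold change of each gene, anti-CD93 over control IgG, with genes in the order of the pathway. Black points with bars are the fit of all 4 libraries ± SE, squares leave out control IgG replicate 1 and triangles leave out control IgG replicate 2. For Hk2 the 3 symbols lie between 0.57 and 0.63, whereas for Pdk1 they run from 0.20 to 1.05.

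The next steps commit the sugar to glycolysis. Gpi1 (chromosome 7, 34201330 to 34230336), which turns glucose 6-phosphate into fructose 6-phosphate, was at 308 and 306 CPM with anti-CD93 and at 285 and 322 CPM with control IgG. Phosphofructokinase, the main control point, is built from liver, muscle and platelet subunits. Pfkl was at 149.6 and 176 CPM with anti-CD93 and 143 and 156 CPM with control IgG, Pfkp at 208 and 220.0 against 223 and 180.1 CPM, and Pfkm at 23.4 and 25.1 against 24.1 and 29.5 CPM. Per length, Pfkl made up 49.8% and 52.4% of the 3 subunits with anti-CD93 and 47.4% and 51.2% with control IgG, Pfkp 34.6% and 32.6% against 36.7% and 29.4%, and Pfkm 15.6% and 14.9% against 15.9% and 19.4%. All 3 subunits overlapped between the groups, with log2 fold changes of 0.12 (SE 0.18) for Pfkl, 0.089 (SE 0.18) for Pfkp and -0.14 (SE 0.22) for Pfkm. The Pfkp value was -0.057 without control IgG replicate 2. Per length, the order was therefore alike in all 4 libraries, with Pfkl first, Pfkp second and Pfkm last. In CPM, Pfkp lay above Pfkl in every library, so the order of these subunits rests on the division by merged exon length.

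The PFKFB enzymes make and break fructose 2,6-bisphosphate, which activates phosphofructokinase. Pfkfb3 (chromosome 2, 11471433 to 11554077), the isozyme with the highest kinase over phosphatase activity, made up 94.3% and 96.1% of the summed per-length PFKFB level with anti-CD93 and 94.9% and 94.2% with control IgG. Its level was 302 and 369.7 CPM with anti-CD93 against 329.7 and 268 CPM with control IgG. The groups overlapped, and the log2 fold change of 0.17 (SE 0.19) was 0.025 without control IgG replicate 2 and 0.014 without anti-CD93 replicate 2. The isozymes Pfkfb1, Pfkfb2 and Pfkfb4 lay between 1.16 and 7.91 CPM in every library and overlapped between the groups, and 19.5% of the merged exons of Pfkfb2 were shared with other genes.

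In the middle of the pathway the sugar is split and oxidised. The aldolase gene Aldoa (chromosome 7, 126795234 to 126809108) was at 342 and 348 CPM with anti-CD93 and at 295 and 444 CPM with control IgG, so that the control libraries enclosed the others. Its log2 fold change of -0.10 (SE 0.22) was 0.22 without control IgG replicate 2 and -0.36 without control IgG replicate 1. Aldoc, the aldolase typical of brain, was read at 2.54 and 2.32 CPM with anti-CD93 and 0.816 and 3.1 CPM with control IgG. Tpi1, the triose phosphate isomerase gene, was at 131 and 130.4 CPM with anti-CD93 against 116 and 137 CPM with control IgG. Gapdh, which encodes the dehydrogenase that yields NADH, was at 145 and 135 CPM with anti-CD93 against 116 and 137 CPM with control IgG. These groups overlapped.

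The Gapdh count is uncertain. By sequence, 328 annotated pseudogenes resembled Gapdh best among the members, and they took 35.2% and 38.7% of the combined reads in the anti-CD93 libraries and 42.2% and 38.3% in the control IgG libraries. With these reads added, the Gapdh log2 fold change was 0.069, beside 0.14 (SE 0.18) for the gene alone. Copies took 3.73% to 6.42% of the combined reads for Eno1 and 3.05% to 3.54% for Pkm. They took 16.7% to 29.7% for the low Mpc1.

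Pgk1 (chromosome X, 106187100 to 106203699), which encodes phosphoglycerate kinase, the first ATP-forming step, was at 183 and 198 CPM with anti-CD93 and at 158 and 146 CPM with control IgG. The groups did not overlap, and its upstream window is the second of those printed with 2 cores. Its log2 fold change was 0.33 (SE 0.17, adjusted p = 0.812 by edgeR) and ran from 0.27 to 0.39 with each library left out. Pgam1, the phosphoglycerate mutase gene, was at 51 and 54.9 CPM with anti-CD93 and 44.9 and 54.4 CPM with control IgG. The enolase gene Eno1 (chromosome 4, 150236721 to 150248879) was at 312 and 318 CPM with anti-CD93 and at 287 and 368 CPM with control IgG. Both overlapped between the groups. Eno2, the neuronal enolase, was at 0.621 and 0.872 CPM with anti-CD93 and 0.979 and 1.71 CPM with control IgG, from 11 to 16 reads per library, so its lower values rest on few reads.

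Pkm (chromosome 9, 59656368 to 59679375), which encodes the pyruvate kinase of non-hepatic tissue, had the highest per-length level of the 33 genes, with 233 and 251 CPM per kilobase in the anti-CD93 libraries and 248 and 275 in the control IgG libraries. In CPM it was at 1167 and 1255 with anti-CD93 and at 1239 and 1376 with control IgG, and the groups overlapped. Its log2 fold change was -0.11 (SE 0.17). The counts are per gene, so its M1 and M2 splice forms were not told apart, and 15.3% of its merged exons were shared with another annotated gene, where such reads go uncounted.

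Lactate is made from pyruvate by lactate dehydrogenase. Ldha (chromosome 7, 46841475 to 46855627), whose subunit favours that direction, was at 354 and 344 CPM with anti-CD93 and 300.0 and 349 CPM with control IgG, with overlapping groups and a log2 fold change of 0.11 (SE 0.17). Ldhb, whose subunit favours the return to pyruvate, was near the floor with 14 and 22 reads with anti-CD93 and 12 and 36 reads with control IgG. Ldha made up 99.5% and 99% of the per-length pair with anti-CD93, against 99.3% and 97.7% with control IgG. The log2 fold change of Ldhb was -1.00 (SE 0.76) with all libraries, 0.26 without control IgG replicate 2 and -1.71 without control IgG replicate 1, so its sign rested on 1 control library.

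Lactate leaves and enters cells through monocarboxylate transporters. Slc16a1 (chromosome 3, 104638668 to 104658462), which encodes MCT1, was at 39.9 and 33 CPM with anti-CD93 and at 32.3 and 24.4 CPM with control IgG. Slc16a3 (chromosome 11, 120948480 to 120960868), which encodes the exporter MCT4, was at 40.3 and 48.7 CPM with anti-CD93 and at 53.9 and 47.6 CPM with control IgG. Slc16a1 did not overlap between the groups and Slc16a3 did. Their log2 fold changes were 0.36 (SE 0.23) and -0.19 (SE 0.20). The Slc16a1 value was 0.18 without control IgG replicate 2 and 0.58 without control IgG replicate 1, and that of Slc16a3 was -0.28 and -0.10. With length and GC trends removed, the values were 0.11 for Slc16a1 and 0.0032 for Slc16a3. Per length, Slc16a3 made up 45.7% and 55.1% of the pair with anti-CD93 and 58.1% and 61.9% with control IgG. The log2 ratio of Slc16a3 to Slc16a1 was 0.023 ± 0.39 with anti-CD93 and 0.59 ± 0.16 with control IgG (SD, n = 2 each), a difference of -0.56 with an exact two-sided permutation p = 0.333 and an adjusted p of 0.933 over the 7 pairs. The other 5 pairs, of Slc2a1 to Slc2a3, Pfkp to Pfkl, Pfkfb3 to Pfkfb4, Ldha to Ldhb and Pdk1 to Pdk4, overlapped between the groups.

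**Figure D3:**
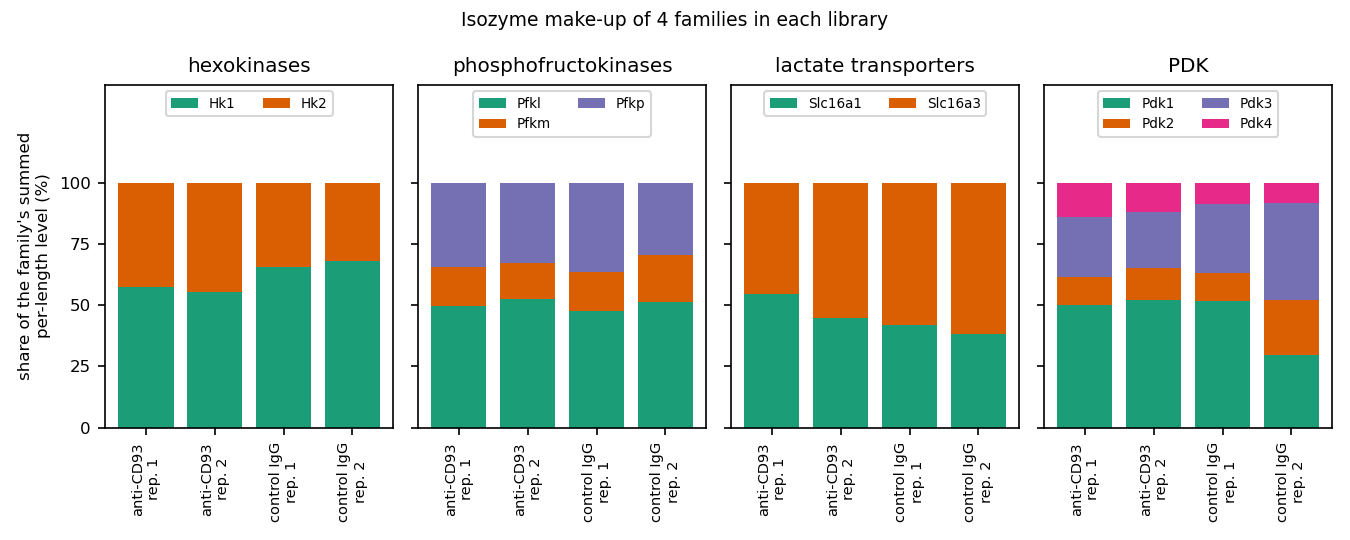
Make-up of 4 isozyme families in each library, as the share of the family's summed per-length level in percent (stacked bars that add up to 100). Hk2 takes 42.8% and 44.5% in the anti-CD93 libraries and 34.4% and 32.2% in the control IgG libraries, and Pdk1 takes 29.7% in control IgG replicate 2 against 49.9% to 52.1% in the other 3.

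Pyruvate enters mitochondria through a carrier of the Mpc1 and Mpc2 subunits. Mpc1 was at 6.21 and 6.1 CPM with anti-CD93 and 6.36 and 6.96 CPM with control IgG, and Mpc2 at 7.74 and 7.77 CPM with anti-CD93 against 8.89 and 10.2 CPM with control IgG. The groups did not overlap for either subunit, but the log2 fold changes of -0.11 (SE 0.31) for Mpc1 and -0.30 (SE 0.28) for Mpc2 were near or under their standard errors. With length and GC trends removed they were -0.18 and -0.49, and 23.1% of the merged exons of Mpc1 were shared with another gene. Pseudogene copies took 17.9% and 29.4% of the combined Mpc1 reads with anti-CD93 and 29.7% and 16.7% with control IgG. The lack of overlap for Mpc1 is therefore uncertain. Pdha1 (chromosome X, 160122209 to 160138413) and Pdhb (chromosome 14, 8165996 to 8173025) encode the subunits of the first enzyme of the pyruvate dehydrogenase complex. Pdha1 was at 71.1 and 70.5 CPM with anti-CD93 against 64.8 and 45.3 CPM with control IgG. Pdhb was at 38.4 CPM in both anti-CD93 libraries against 33.9 and 27.3 CPM with control IgG. Neither overlapped, with control IgG replicate 2 the lowest library for both. Their log2 fold changes were 0.36 (SE 0.22) and 0.32 (SE 0.21), and 0.13 and 0.18 without control IgG replicate 2. With length and GC trends removed they were 0.27 and 0.20, and 16.1% of the merged exons of Pdha1 were shared with another gene.

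The pyruvate dehydrogenase kinases switch the complex off by phosphorylation and so hold pyruvate back from oxidation. Pdk4 (chromosome 6, 5483351 to 5496309), the isozyme known for its induction by fasting and fatty acids, was at 9.21 and 6.76 CPM with anti-CD93 and at 4.57 and 4.18 CPM with control IgG, from 163 and 93 reads against 56 and 39 reads. Both anti-CD93 libraries lay above both controls. Its log2 fold change of 0.87 (SE 0.34, unadjusted p = 0.0343 and adjusted p = 0.812 by edgeR) was the highest of the 33 and ran from 0.63 to 1.07 with each library left out. Pdk1 (chromosome 2, 71873224 to 71903858), a well-known hypoxia target, was at 72.1 and 64.8 CPM with anti-CD93 and at 59.5 and 33.1 CPM with control IgG. The groups did not overlap, and control IgG replicate 2 stood well below the other 3 libraries. Its log2 fold change was 0.56 (SE 0.28, adjusted p = 0.812 by edgeR). Removing control IgG replicate 2 gave 0.20, and removing control IgG replicate 1 gave 1.05. Pdk2 was at 6.67 and 6.68 CPM with anti-CD93 and 5.22 and 10.2 CPM with control IgG, and Pdk3 at 11.7 and 9.3 CPM against 10.7 and 14.6 CPM, both with overlap.

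The choice of control library decided how many members were called. With control IgG replicate 1 removed, and the lone remaining control assumed to vary like the other group, edgeR called 9 members, or 27.3%, beside 26.8% of all genes. The 7 that were higher with anti-CD93 (background 14.1%) were Slc2a1, Hk2, Pgk1, Slc16a1, Pdk1, Pdha1 and Pdhb, and the 2 that were lower (background 12.8%) were Aldoa and Ldhb. With control IgG replicate 2 removed instead, edgeR called 0 members and 0.0767% of all genes (0.059% higher and 0.0177% lower). In that setting 24 of the 33 members lay above 0 (72.7%, beside 50.6% of all genes), and their median log2 fold change was 0.18. Without control IgG replicate 1 the lean went the other way, with 15 of the 33 members above 0 and a median of -0.066. Leaving out either anti-CD93 library gave 0 called members, beside 0% of all genes without replicate 1 and 0.0059% without replicate 2 (0.0059% lower and 0% higher).

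Genes of adjoining pathways were read from 9 further lists with 114 genes, of which 94 were tested. By edgeR 0 of these 94 passed, 5 had an unadjusted p under 0.05 (4.49% of all genes did), and DESeq2 and limma-voom called 0. The median log2 fold change was 0.10 over 8 other glycolytic isozymes, with 6 above 0, but -0.11 without control IgG replicate 2. It was -0.0086 over 8 other sugar and monocarboxylate transporters, with 4 above, and 0.16 without that library. Over 7 other genes of the pyruvate dehydrogenase complex and its phosphatases it was 0.15, with 5 above, and 0.075 without control IgG replicate 2. Among the 2 genes with the smallest p of each of these lists, Hkdc1, a hexokinase domain gene, was at 3.05 and 1.45 CPM with anti-CD93 against 0.653 and 1.07 CPM with control IgG. Adpgk, an ADP-dependent glucokinase, was at 31.7 and 39.5 CPM with anti-CD93 against 39.8 and 46.4 CPM with control IgG. Slc2a13, a proton myo-inositol carrier, was at 37.3 and 35.5 against 31 and 21.3 CPM, and Slc2a9, a urate carrier, at 3.62 and 4.43 against 5.22 and 6.1 CPM. Pdp1, the phosphatase that reactivates the complex, was at 11.6 and 11.3 CPM with anti-CD93 against 8.89 and 9.85 CPM with control IgG, and Pdpr, its regulatory subunit, at 20.5 and 22.1 against 19.8 and 16.1 CPM. These 6 genes stood apart between the groups, which follows in part from their choice by p, and 39.8% of all genes tested did so. Of the genes tested, 6 of the 8 isozymes, 4 of the 8 transporters and 4 of the 7 genes of the complex overlapped.

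In the pentose phosphate branch 2 of 9 genes lay above 0 and 7 below, with a median log2 fold change of -0.18, and -0.027 without control IgG replicate 2. Taldo1, the transaldolase gene, was at 58.1 and 63.1 CPM with anti-CD93 against 63.6 and 89.7 CPM with control IgG, and Pgls, the lactonase gene, at 16.2 and 15.9 against 18 and 24.6 CPM. In the tricarboxylic acid cycle 2 of 15 lay above and 13 below, with a median of -0.13, and -0.032 without control IgG replicate 2. Sdhb, an iron-sulphur subunit of succinate dehydrogenase, was at 27.6 and 25 CPM with anti-CD93 against 29.4 and 45.1 CPM with control IgG, and Idh3g, a subunit of isocitrate dehydrogenase, at 30.1 and 28.4 against 35.7 and 39.8 CPM. Both medians below 0 were thus smaller in size once that library was removed, and values without control IgG replicate 1 are not given for these lists. Without overlap between the groups, 8 of the 15 cycle genes and 3 of the 9 pentose phosphate genes were lower with anti-CD93, beside 19.7% of all genes. In the same way 1 cycle gene and 0 pentose phosphate genes were higher, beside 20.1% of all genes. Over the glycerol phosphate and malate-aspartate shuttles the median was -0.018, with 5 of 10 above, and -0.078 without control IgG replicate 2. Got2, the mitochondrial aspartate aminotransferase gene, was at 23.7 and 32.1 CPM with anti-CD93 against 34.8 and 45.3 CPM with control IgG, and Mdh2, the mitochondrial malate dehydrogenase gene, at 90.5 and 86.7 against 99.1 and 148 CPM.

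For gluconeogenesis and glycogen 8 of 13 genes lay above 0, with a median of 0.30 that was also 0.30 without control IgG replicate 2. Ugp2, which makes UDP-glucose for glycogen, was at 25.5 and 21.9 CPM with anti-CD93 against 19.3 and 11.7 CPM with control IgG, and the glycogen synthase gene Gys1 at 34.7 and 31 against 19.5 and 28.3 CPM. In the hexosamine and serine branches 4 of 10 lay above, with a median of -0.10, and without control IgG replicate 2 it was 2 of 10 with a median of -0.16, but the 2 aminotransferases that open the hexosamine branch went opposite ways. Gfpt1 was at 162 and 134 CPM with anti-CD93 against 97.3 and 81.9 CPM with control IgG (log2 fold change 0.73, SE 0.19, unadjusted p = 0.00527 and adjusted p = 0.812 by edgeR). Gfpt2 was at 4.8 and 6.68 CPM with anti-CD93 against 8.24 and 12.6 CPM with control IgG (log2 fold change -0.86, SE 0.35). Neither overlapped between the groups, which follows in part from their choice by p, and 39.8% of all genes tested did not overlap.

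**Figure D4:**
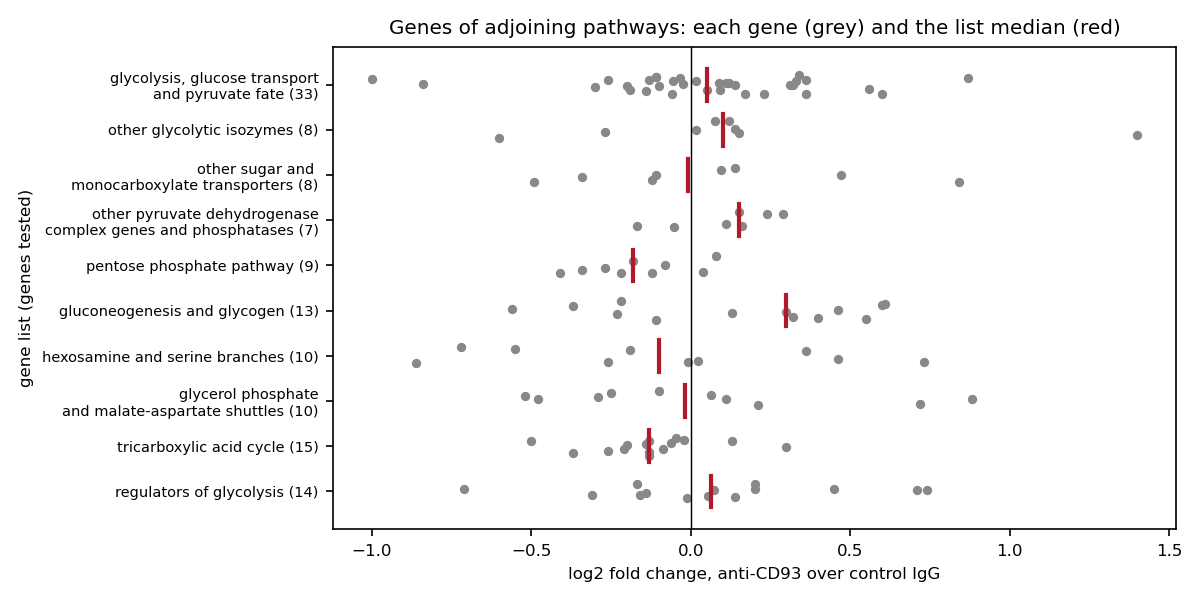
Log2 fold change of every tested gene of the 33 members and of 9 lists of adjoining pathways, anti-CD93 over control IgG. Grey points are genes, spread up and down only so that they can be seen, and red bars are list medians. The medians run from -0.18 for the pentose phosphate pathway to 0.30 for gluconeogenesis and glycogen, beside 0.052 for the 33 members.

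Among 14 tested regulators of glycolysis the median log2 fold change was 0.063, with 8 above 0, and 0.0083 without control IgG replicate 2. Egln3, an oxygen-sensing prolyl hydroxylase and itself a hypoxia target, was at 74.2 and 83.3 CPM with anti-CD93 against 53.5 and 40.8 CPM with control IgG (log2 fold change 0.74, SE 0.21). Klf2, a flow-responsive factor known to hold back endothelial glycolysis, was at 129 and 188 CPM with anti-CD93 against 269 and 248 CPM with control IgG (log2 fold change -0.71, SE 0.22). Both stood apart between the groups, which follows in part from their choice by p, and 39.8% of all genes tested did so. Neither passed (adjusted p = 0.812 by edgeR for each). Of the 14 regulators, 3 had an unadjusted p under 0.05 by edgeR (4.49% of all genes did), and 8 overlapped between the groups. Only the 2 with the smallest p are named, so they do not stand for the direction of the list. Without control IgG replicate 2 the values were 0.56 for Egln3 and -0.76 for Klf2.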

How the data were processed

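RNA was measured in 4 libraries of sorted tumour endothelial cells, from stranded low-input libraries read as 150-base pairs, per the labels' protocols. The authors used featureCounts 2.0.1 with GENCODE M25 (GRCm38) to count reads by gene name, per the file headers, and without paired-end, strand or multi-mapping options, so mates were counted singly and antisense reads were not told apart. STAR 2.7.5b and DESeq2 1.28.1 are named in the submitters' processing notes. The deposited values are raw read counts. A second deposited table held the same counts (0 of 221468 cells differed).

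The genes tested had passed filterByExpr (minimum count 10). They were scaled by TMM and tested with edgeR 4.0.16 (quasi-likelihood, robust, R 4.3.3, group as the only term, adjusted p under 0.05). The fit was tested on simulated data. Alternatives used DESeq2 1.42.0 and limma 3.58.1, among others. Per-length levels divide CPM by merged exon length, which counts exons of all transcripts. Copies were GENCODE M21 pseudogenes, and 4 named retrogenes and paralogues, matched by blastn at 80% identity over 200 bases. Exact permutation tests used scipy.

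All 33 members are named, with up to 2 genes of smallest p from each other list. Members and lists were chosen with earlier results of these data known. Depth and 2 libraries per group limit precision.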

Additional observations from a re-analysis of the deposited data

How the results depend on the processing

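The number of genes called was 0 in the fit reported and also with 3 other scalings, a minimum count of 50, counts divided by 2, protein-coding genes alone, no robust dispersion, removal of length and GC trends, added copies, limma-voom and a threshold of 0.1. It was 48 with no count filter, 5 by DESeq2, 14 with the replicate number as a block, 761 at an unadjusted p under 0.05, and 0 to 4549 with 1 library left out. Members called numbered 0 under all of these but for 2 at an unadjusted p and 0 to 9 with 1 library left out. The median of the members, 0.052, was 0.17 with length and GC trends removed, where 26 of 33 lay above 0 (78.8%, beside 46.3% of all genes), and -0.066 to 0.18 with 1 library left out. Members without overlap, 12 in all, numbered 11 with copies added. With 1 library left out they numbered 17 to 27, where a lone library overlaps less by construction. The share of all genes in those settings is not given, so these counts cannot be read as a result about the members. The setting without control IgG replicate 2 was chosen after seeing the data. The deviations of same-numbered libraries from their group means had a correlation of -0.0155 over genes (2 pairs). With 2 libraries per group this cannot decide whether the numbers mark pairs. The reported fit did not take them as pairs, and the block called no member but 14 of all genes.

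Of 556 member values under alternatives, 529 kept their direction. Most alternatives refitted the same 4 libraries, which leaves a sign little room to turn. The 27 reversed values fell on 16 of the 33 members, and 9 members had one outside leaving a library out. With length and GC trends removed the sign turned for Hk1 (0.0032), Pfkm (0.021), Aldoa (0.18), Eno1 (0.10), Pkm (0.04), Slc16a3 (0.0032), Pfkfb4 (0.087) and Pdk2 (0.077). That setting also moved others by over 1.5 times without a turn, to 0.17 for Gpi1, 0.32 for Pfkl, 0.52 for Aldoc, 0.21 for Tpi1, 0.35 for Gapdh, 0.22 for Pgam1, 0.17 for Ldha, 0.11 for Slc16a1, -0.26 for Pfkfb1, -0.11 for Pfkfb2, -0.65 for Pdk3, 0.20 for Pdhb, -0.18 for Mpc1, -0.49 for Mpc2 and 0.055 for Pfkp. With no count filter the sign turned for Hk1 (0.017) and Pfkfb2 (0.016), and with the block for Pfkfb2 (0.0095). With 1 library left out the sign turned within Hk1 (-0.13 to 0.071), Gpi1 (-0.068 to 0.11), Pfkm (-0.29 to 0.0089), Pfkp (-0.057 to 0.25), Aldoa (-0.36 to 0.22), Aldoc (-0.35 to 1.57), Tpi1 (-0.066 to 0.18), Pgam1 (-0.041 to 0.24), Eno1 (-0.23 to 0.13), Ldhb (-1.71 to 0.26), Pfkfb1 (-0.89 to 0.34), Pfkfb2 (-0.32 to 0.37), Pfkfb4 (-0.12 to 0.013) and Pdk2 (-0.61 to 0.35). The cause was not tested.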
